A study of Homo sapiens with 4 samples.

Results

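The genes described here are 10 genes that restrain ERK signalling or are switched on by it: the MAPK phosphatases DUSP4, DUSP5, DUSP6 and DUSP9, the inhibitors SPRY1, SPRY2, SPRY4 and SPRED1, and the transcription factors ETV4 and ETV5. They were found by gene symbol in the deposited table, where all 10 had a row among 19734 gene rows. The members were selected on their roles with the measured levels in all 4 libraries known, DUSP6 being chosen by its large siMYCN difference. The members' levels and differences are therefore a description, with no test, and a count of members that moved is no evidence about the group.

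The RNA came from BE(2)C:MYCN-ORF cells, the human neuroblastoma line BE(2)C carrying a MYCN open reading frame, whose parent line has many copies of MYCN. PolyA RNA was sequenced 48 hours after transfection in 4 groups: control siRNA with control miRNA mimic (siCon, miRCon), control siRNA with a let-7a mimic (siCon, let-7a), siRNA against MYCN with control mimic (siMYCN, miRCon), and both agents (siMYCN, let-7a). Each group had 1 library, so no value has a replicate error and none of the differences between libraries has a replicate check. The labels do not say whether the line is a clone, nor whether the siRNA also acts on the introduced reading frame.

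The values are TPM-like, that is, per transcript length and scaled to a near-constant total, so they allow levels of different genes to be set side by side but keep no read depth. They summed to between 855610 and 861824 over the gene rows. MYCN itself was at 1449 and 1433 with siCon and at 1238 and 1197 with siMYCN, a log2 difference of -0.24 ± 0.047 (SE of the limma model described below, 4 libraries) that did not pass (adjusted p = 0.0584 by limma). All 10 noradrenergic neuroblastoma markers were at least 5 in every library, with sums between 2335 and 2656. Blood cell markers summed to between 3.06 and 3.65, with 1 to 3 of 6 listed at 0, and epithelial markers to between 9.53 and 14.2, with 2 of 6 listed at 0. Of 8 fibroblast markers, 6 were at least 5 in every library, with sums between 386 and 448. In bulk RNA, fewer cells of a type and less RNA per cell cannot be told apart.

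ERK is the last kinase of the cascade that runs from receptor tyrosine kinases through RAS, RAF and MEK. Active ERK induces genes that shut the cascade down again. The dual-specificity phosphatases remove the activating phosphates from ERK and related kinases, and Sprouty and SPRED proteins act further up, on RAS and RAF. ETV4 and ETV5 are ETS factors of the PEA3 family that are induced downstream of FGF receptors and RAS, and levels of DUSP6, SPRY4 and ETV4 are widely used as readouts of ERK output. MYCN is a transcription factor that drives growth in neuroblastoma, and let-7 is a microRNA family known for repressing MYCN, LIN28B and RAS genes.

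The let-7a guide strand pairs with targets through its seed, bases 2 to 8, shown in capitals, as given by RefSeq on GRCh38.p14. Sites were searched in the longest 3' UTR of each gene in GENCODE 29 as CTACCTC, CTACCTCA or TACCTCA, on the transcript strand only, where CTACCTCA contains the other two. Of the 10 members, 3 had a site, in each case 1 copy of the TACCTCA kind, and 19.0% of the 8916 expressed genes with a 3' UTR had a site of any of these kinds. The sites of DUSP6 and DUSP9 are shown because these genes differed most with siMYCN, and a LIN28B site of the longer kind is shown for comparison. The capitals mark the site as searched, in which TACCTCA pairs with bases 2 to 7 of let-7a and ends in an A opposite base 1, and CTACCTCA pairs with base 8 as well. The third member with a site was DUSP4.
let-7a-5p: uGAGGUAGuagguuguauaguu
DUSP6 site: ctaccctctcctTACCTCAaatg
DUSP9 site: gggagagcgcaaTACCTCAcgcg
LIN28B site: cggttgcaaagtCTACCTCAtgca

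The DUSP6 stretch lies on the minus strand at chr12:89347281-89347303, near the end of the 3' UTR, and the DUSP9 stretch on the plus strand at chrX:153650420-153650442. The LIN28B stretch lies on the plus strand at chr6:105078815-105078838. These positions are on GRCh38.

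Promoter windows of 300 bases, each around a start in the RefSeq table, were taken from RefSeq on GRCh38.p14, where 6 of the 10 members had an entry, with 10 windows between them. DUSP4, DUSP5, ETV4 and ETV5 had none. The windows of DUSP6 and SPRY4 are shown because these genes were higher in both siMYCN libraries, and 1 of the windows of DUSP9 because this gene was lower there. They were searched on both strands for CACGTG, the E-box bound by MYC family dimers, AGGAAG, the PEA3 motif, and TGACTCA, an AP-1 site. None of the motifs contains another.
DUSP6 promoter: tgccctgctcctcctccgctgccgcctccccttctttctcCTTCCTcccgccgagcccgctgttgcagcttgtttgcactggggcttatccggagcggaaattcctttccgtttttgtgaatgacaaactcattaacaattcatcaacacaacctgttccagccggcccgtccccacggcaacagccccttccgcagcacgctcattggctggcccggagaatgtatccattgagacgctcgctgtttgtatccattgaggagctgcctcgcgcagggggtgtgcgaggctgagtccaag
SPRY4 promoter: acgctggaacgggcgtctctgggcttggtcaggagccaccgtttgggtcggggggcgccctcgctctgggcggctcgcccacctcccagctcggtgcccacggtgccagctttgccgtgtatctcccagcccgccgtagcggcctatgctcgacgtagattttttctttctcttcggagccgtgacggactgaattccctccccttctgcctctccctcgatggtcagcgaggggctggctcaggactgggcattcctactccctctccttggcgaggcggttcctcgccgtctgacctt
DUSP9 promoter: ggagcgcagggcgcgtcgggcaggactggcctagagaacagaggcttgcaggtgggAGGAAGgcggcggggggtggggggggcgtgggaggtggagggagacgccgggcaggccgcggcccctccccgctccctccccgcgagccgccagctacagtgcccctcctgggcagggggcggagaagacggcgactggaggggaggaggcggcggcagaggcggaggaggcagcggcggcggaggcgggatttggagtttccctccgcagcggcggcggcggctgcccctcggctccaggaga

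In these letters the capitals mark AGGAAG or its reverse complement. The windows are chr12:89352452-89352751 on the minus strand, chr5:142324198-142324497 on the minus strand and chrX:153642191-153642490 on the plus strand. By the gene spans of GENCODE 29, given with each gene below, the DUSP6 and SPRY4 windows lie inside the gene, downstream of its outermost start, and the DUSP9 window lies just before the gene. CACGTG was in 0 of the 10 windows of members and in 7.26% of 35116 windows of the same length, and TGACTCA was in 0 of 10 and in 4.95%. AGGAAG was in 8 of the 10 windows and in 33.6% of all windows, but several windows belong to 1 gene. A match is a description of the letters, not a binding site.

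The phosphatases went in different directions with siMYCN. DUSP6 (chr12:89347232-89353271, minus strand of GRCh38), a cytoplasmic phosphatase that prefers ERK, had siCon levels of 3.51 (miRCon) and 4.10 (let-7a) and siMYCN levels of 21.7 (miRCon) and 26.0 (let-7a). The gap between the siCon and siMYCN libraries was far wider than the gap between mimics. The siMYCN level was 6.18 times the siCon level with miRCon and 6.34 times with let-7a. On the scale of log2(value + 1), used for all differences below, this was 2.33 and 2.40. Both siCon values were low, under the level of 5 used as a filter on the mean, which DUSP6 passed through its siMYCN libraries. With a pseudocount of 5 the differences were 1.65 with miRCon and 1.77 with let-7a.

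DUSP9 (chrX:153642492-153651326, plus strand), a close relative of DUSP6 that also acts on ERK in the cytoplasm, had the opposite pattern. Its levels were 8.89 and 7.65 in siCon with miRCon and with let-7a, and 4.28 and 2.48 in the corresponding siMYCN libraries. The differences were -0.91 with miRCon and -1.32 with let-7a. DUSP9 is a gene of low level, with a mean of 5.82, and it passed the filter on the mean through its siCon libraries. With a pseudocount of 5 it no longer reached 1.5-fold in both pairs.

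The third phosphatase of this cytoplasmic subfamily is DUSP7, which is not a member of the group. It was at 56.9 and 57.6 in siCon and at 63.4 and 59.5 in siMYCN, and so was the most abundant of the 3 in every library. DUSP6 made up 5.07% and 5.90% of their summed level with siCon, against 24.3% and 29.5% with siMYCN. DUSP9 went from 12.8% and 11.0% to 4.79% and 2.82%. The sum of the 3 was 69.3 and 69.4 with siCon and 89.3 and 87.9 with siMYCN.

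DUSP4 (chr8:29333064-29350668, minus strand) and DUSP5 (chr10:110497838-110511544, plus strand) are nuclear, inducible phosphatases. DUSP4 was at 26.9 and 29.1 in siCon with miRCon and with let-7a, and at 45.7 and 51.5 in siMYCN. The differences of 0.74 and 0.80 were nearly alike in the pairs. DUSP5, which acts on ERK, was at 6.92 and 7.62 in siCon and at 6.67 and 9.16 in siMYCN, so that its siCon and siMYCN values overlapped, with differences of -0.046 and 0.24.

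**Figure D1:**
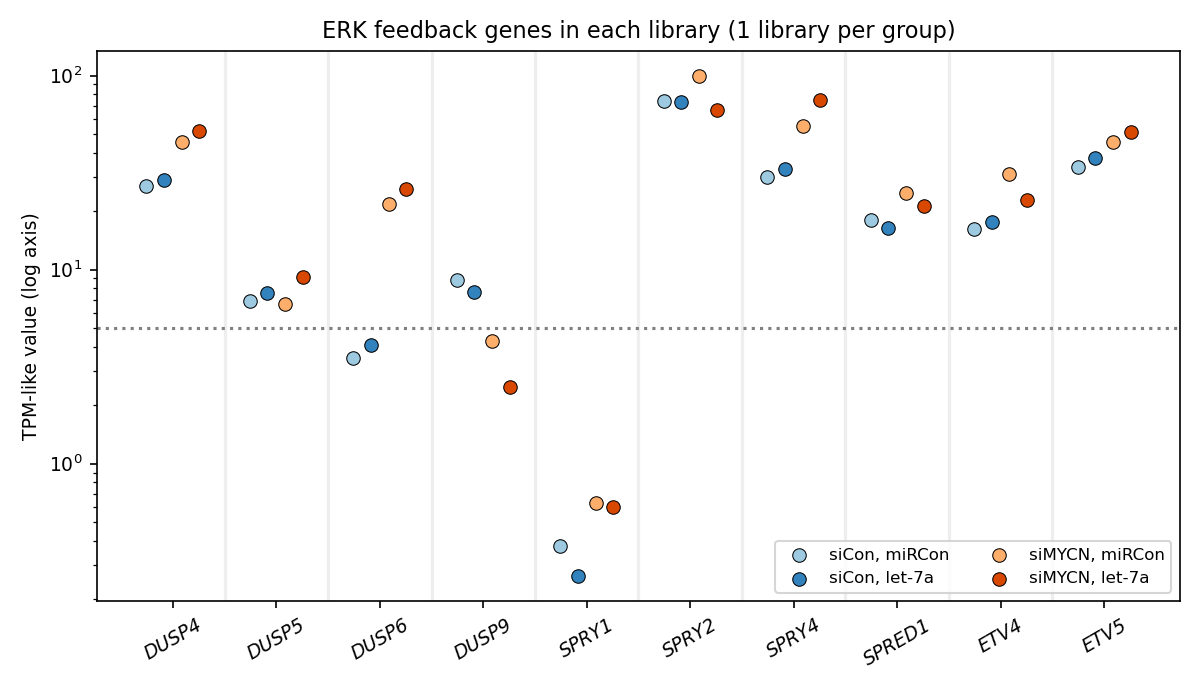
TPM-like level (log axis) of each of the 10 genes in the 4 libraries, 1 point per library, blue for siCon and orange for siMYCN, with the darker shade for let-7a; the dotted line is the level of 5 used as a filter on the mean. DUSP6 goes from 3.51 and 4.10 in siCon to 21.7 and 26.0 in siMYCN, DUSP9 goes the other way, and SPRY1 lies under the line in all libraries.

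Sprouty and SPRED genes encode membrane-associated inhibitors of signalling to ERK. SPRY4 (chr5:142310427-142326455, minus strand) was at 30.1 and 32.8 in siCon with miRCon and with let-7a, and at 54.8 and 74.4 in siMYCN. Its differences were 0.85 and 1.16. SPRY2 (chr13:80335976-80340951, minus strand), the most abundant member in 3 of the 4 libraries, was at 74.1 and 73.1 in siCon, and with siMYCN at 99.7 (miRCon) and 66.7 (let-7a). Its siMYCN values thus lay on either side of the siCon values, with differences of 0.42 with miRCon and -0.13 with let-7a.

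SPRY4 exceeded SPRY2 in 1 library, the one that received both siMYCN and let-7a. SPRY4 took 28.7% and 30.8% of the summed level of the 4 Sprouty genes in the siCon libraries, and with siMYCN 35.3% (miRCon) and 52.4% (let-7a). SPRY1 (chr4:123396795-123403760, plus strand) was between 0.263 and 0.625 and was the member that did not reach the filter of a mean of 5. SPRY3 was at 0.440 or less, so that SPRY2 and SPRY4 made up nearly all of the Sprouty transcripts.

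SPRED1 (chr15:38252326-38357249, plus strand), which brings neurofibromin to RAS at the membrane, was at 17.9 and 16.4 in siCon with miRCon and with let-7a and at 24.7 and 21.1 in siMYCN. The differences were 0.44 and 0.34. The 2 other SPRED genes are on the list of further inhibitors. SPRED2 was at 33.1 and 33.0 in siCon and at 47.0 and 44.3 in siMYCN, and SPRED3, with a mean under 5, was at 1.49 and 0.854 in siCon and at 3.53 and 3.24 in siMYCN. The siMYCN difference was above 0 in both pairs for all 3 SPRED genes, and for 43.2% of the 9324 genes with a mean of at least 5. SPRED2 and SPRED3 were added as relatives of a member, so nothing is read from this count. Their summed level was 52.5 and 50.3 with siCon and 75.2 and 68.7 with siMYCN.

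The PEA3 factors bind ETS motifs and are themselves induced by ERK signalling. ETV5 (chr3:186046308-186110318, minus strand) was at 33.7 and 37.5 in siCon with miRCon and with let-7a and at 45.2 and 51.3 in siMYCN. Its differences of 0.41 and 0.44 were the closest to each other among the members. ETV4 (chr17:43527844-43579620, minus strand) was at 16.2 and 17.5 in siCon, and with siMYCN at 31.2 (miRCon) and 22.9 (let-7a). The difference was 0.90 with miRCon and 0.37 with let-7a.

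ETV1, the remaining PEA3 factor and no member of the group, was lower with the let-7a mimic. Its level was 7.23 and 5.30 in siCon with miRCon and with let-7a, and 8.66 and 3.63 in siMYCN. ETV4, ETV5, SPRY4 and DUSP6 overlap other annotated genes. ETV5 shares part of its span with DGKG on the same strand and ETV4 with DHX8 on the opposite strand, while DUSP6, SPRY4 and ETV5 each have an antisense gene. No source used here states that strand was used in quantification, so reads of such partners cannot be told apart from those of the members.

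**Figure D2:**
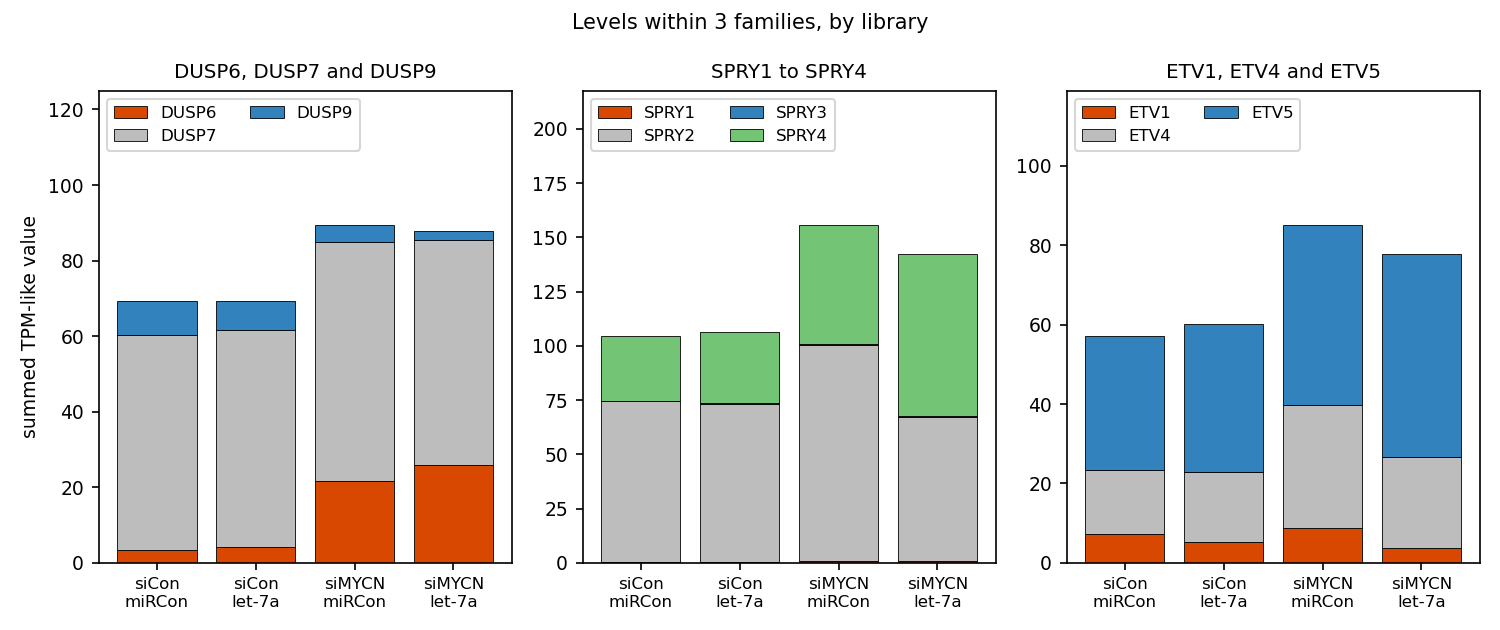
Summed TPM-like level (bars, axis from 0) of 3 families in the 4 libraries, divided by gene. DUSP6 takes 24.3% and 29.5% of its family in the siMYCN libraries against 5.07% and 5.90% in the siCon libraries, and SPRY4 exceeds SPRY2 in the library with siMYCN and let-7a.

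Across the group, 7 of 10 members were higher with siMYCN in both pairs (with miRCon and with let-7a), 1 was lower in both (DUSP9) and 2 had opposite signs (DUSP5 and SPRY2). Among the 9324 genes with a mean of at least 5, 43.2% were above 0 in both pairs, 27.4% were below 0 in both and 29.4% had opposite signs. The share of all genes whose siCon and siMYCN values overlapped was not computed, so nothing is read from the overlap of DUSP5 and SPRY2. A rule of size, which asks for 1.5-fold or more in 1 direction in each pair, took in 3 members as higher (DUSP6, SPRY4 and DUSP4) and 1 as lower (DUSP9). This rule took in 2.85% of the 9324 genes as higher and 1.61% as lower. Nothing is read from these counts, because the values behind them were known when the group was chosen. The median of the 10 members over both pairs was 0.41, beside a median of 0.056 over all genes. The levels of the 10 members summed to 219 and 226 with siCon, against 335 and 326 with siMYCN.

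The pairs share no library, but they do share the same cells and procedure. Other features of the libraries moved with siMYCN as well. Noradrenergic markers summed to 2554 and 2656 with siCon, against 2335 and 2417 with siMYCN, with 9 of 10 lower in both pairs. Fibroblast markers summed to 426 and 403 with siCon and to 448 and 386 with siMYCN. Mitochondrially encoded transcripts made up 31.7% and 32.1% of the summed level with siCon and 28.4% and 29.3% with siMYCN. Their part in the differences of the members was not tested. With values rescaled by median ratios the same 4 members met the rule of size in the same directions.

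**Figure D3:**
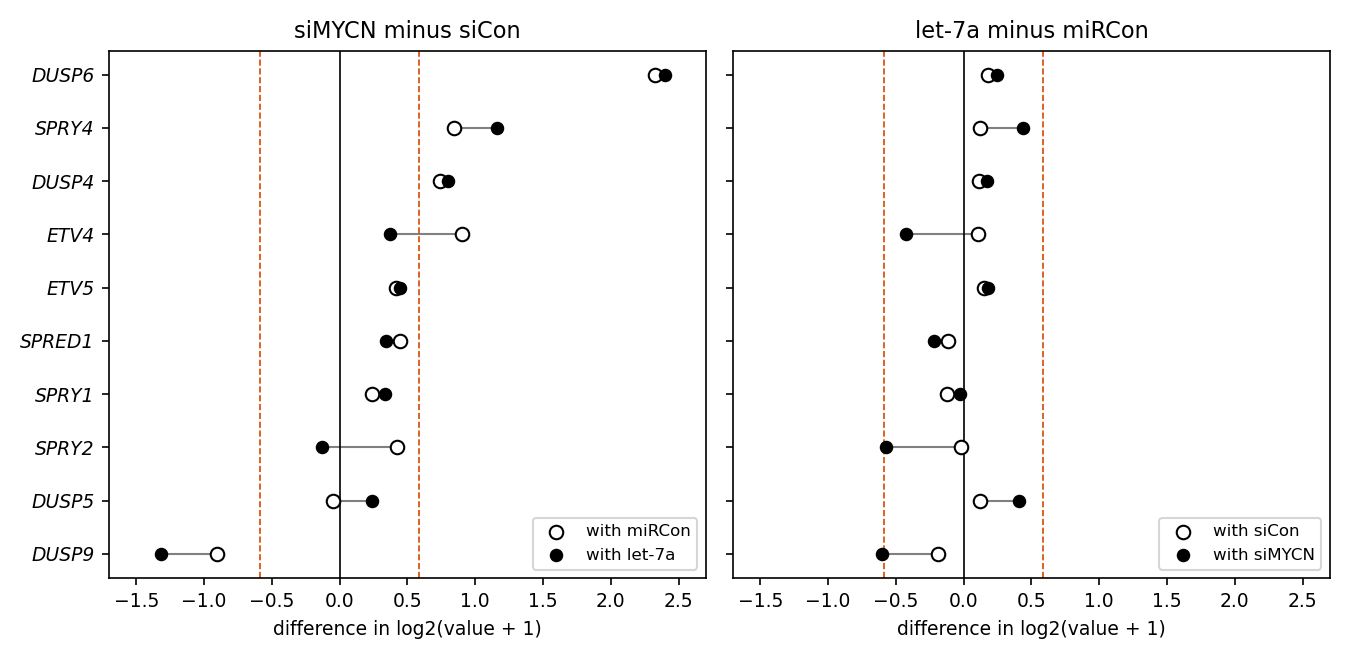
Difference in log2(value + 1) for each gene with siMYCN (left) and with let-7a (right), with 1 point for each of the 2 pairs of libraries and dashed lines at 1.5-fold. With siMYCN, DUSP6, SPRY4 and DUSP4 lie beyond the right line and DUSP9 beyond the left line in both pairs, and with let-7a none of the genes lies beyond a line in both pairs.

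With the let-7a mimic, the mean difference over both pairs was between -0.40 (DUSP9) and 0.28 (SPRY4), and it was farther from 0 than the mean siMYCN difference for DUSP5 and SPRY2. LIN28B, an established let-7 target, was at 157 with miRCon and 96.5 with the let-7a mimic in siCon cells, against 119 and 55.5 after siMYCN. Of the 10 members, 5 were higher with let-7a in both pairs (DUSP4, DUSP5, DUSP6, SPRY4 and ETV5), 4 were lower in both (DUSP9, SPRY1, SPRY2 and SPRED1) and ETV4 had opposite signs. Of all genes, 22.6% were above 0 in both pairs, 33.5% were below 0 in both and 44.0% had opposite signs. The rule of size took in 0 members in either direction, and 0.204% of all genes as higher and 0.257% as lower. With rescaled values SPRY2 was at 0.0054 in siCon cells in place of -0.020, so its sign there depends on scaling.

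The 3 members with a let-7a site differed in direction. DUSP9 was lower with let-7a, by -0.19 in siCon cells and -0.60 in siMYCN cells. DUSP6 was higher, by 0.18 and 0.25, and DUSP4 was higher, by 0.11 and 0.17. SPRY2, which has no site in the UTR searched, differed by -0.57 in siMYCN cells. SPRY4, also without a site, was higher by 0.12 in siCon cells and 0.43 in siMYCN cells, and DUSP5 was higher by 0.12 and 0.41. For SPRED1, which has a 3' UTR of 5585 bases and no site, the differences were -0.12 and -0.22.

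The let-7a differences were farther from 0 in siMYCN cells than in siCon cells for 9 of the 10 members, all but SPRY1, and for 56.4% of all genes. The difference between the let-7a effects of the 2 siRNA states equals that between the siMYCN effects under the 2 mimics, and with 1 library a group it has no test. It was largest for SPRY2 (-0.55), ETV4 (-0.53) and DUSP9 (-0.41), which were lower with let-7a in siMYCN cells, and for SPRY4 (0.31) and DUSP5 (0.28), which were higher. No member reached 1.5-fold in this contrast (0 of 10), and 10.0% of all genes did. DUSP6 (0.073), DUSP4 (0.060) and ETV5 (0.029) had nearly the same siMYCN difference with either mimic.

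With both agents against neither, DUSP6 was higher by 2.58, SPRY4 by 1.28, DUSP4 by 0.91 and ETV5 by 0.59. DUSP9 was lower by -1.51. This comparison took in 7.50% of all genes at 1.5-fold as higher and 5.97% as lower, and it reuses the libraries of the comparisons above. ETV4 was higher by 0.47, DUSP5 by 0.36, SPRED1 by 0.23 and SPRY1 by 0.22, and SPRY2 was lower by -0.15.

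The order of the members by level changed with siMYCN. In siCon with miRCon the order was SPRY2, ETV5, SPRY4, DUSP4, SPRED1, ETV4, DUSP9, DUSP5, DUSP6 and SPRY1. In siMYCN with let-7a it was SPRY4, SPRY2, DUSP4, ETV5, DUSP6, ETV4, SPRED1, DUSP5, DUSP9 and SPRY1. DUSP6 was thus at rank 9 of 10 in both siCon libraries and at rank 7 and rank 5 in the siMYCN libraries. With 1 library a group it cannot be said which neighbours differ beyond their spread. DUSP4 and ETV5, at 45.7 and 45.2 in siMYCN with miRCon, were nearly level.

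Genes of the same pathway outside the group were tested with limma, on an additive model of siRNA and mimic over the 9324 genes. Its error rests on 1 residual degree of freedom, the deviation of the 4 libraries from additive effects, and on a trend over all genes. With siMYCN, 2.07% of genes were called higher and 1.36% were called lower when the Benjamini-Hochberg threshold was set at 0.05, and 26.4% had an unadjusted p under 0.05. With no filter on the mean, and with limma without a trend, 0 genes were called in either direction (2457 and 2221 at an unadjusted p under 0.05).

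Among 24 immediate-early and delayed early genes of ERK signalling, 17 reached the filter. Limma called 3 of them higher with siMYCN and 0 lower, beside 2.07% and 1.36% of all genes. This list and those below were chosen with earlier results of these data known, so counts of calls in them are a description. VGF, a neuropeptide precursor induced by growth factors, was at 179 and 181 in siCon with miRCon and with let-7a and at 353 and 437 in siMYCN. Its log2 fold change was 1.12 ± 0.088 (SE of the limma model over 4 libraries; adjusted p = 0.0207 by limma). MCL1, a survival protein of the BCL2 family, was at 93.2 and 99.3 in siCon and at 137 and 163 in siMYCN, a change of 0.63 ± 0.081 (SE; adjusted p = 0.0344 by limma). CCND1, the G1 cyclin D1, was at 426 and 398 in siCon and at 555 and 532 in siMYCN, a change of 0.40 ± 0.055 (SE; adjusted p = 0.0383 by limma). With no filter the adjusted p by limma was 0.367 for all 3 genes, and without a trend it was 0.129 for VGF, 0.132 for MCL1 and 0.156 for CCND1.

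The list's median over both pairs was 0.23, beside 0.056 for all genes. Of its 17 genes, 12 were above 0 in both pairs, 3 were below 0 in both and 2 had opposite signs. Among all genes these shares were 43.2%, 27.4% and 29.4%. The immediate-early genes themselves varied. With siMYCN, JUN differed by 0.28 under miRCon and 0.38 under let-7a, JUNB by 0.29 and 0.52, and IER2 by 0.13 and 0.054. EGR1 was at 21.4 and 22.1 with miRCon in siCon and siMYCN and at 30.8 and 48.0 with let-7a, so that it was higher with the mimic in both siRNA states. FOS was between 2.09 and 3.30 and reached no filter, IER3 was listed at 0 in all libraries, and the orphan nuclear receptor NR4A1 was at 14.3 and 13.8 in siCon and at 10.3 and 7.32 in siMYCN. All of these immediate-early genes were named after their values were seen.

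Limma called 0 genes with siMYCN in each of the other pathway lists. Of the 6 other kinase-binding MAPK phosphatases, 4 reached the filter, with a median of 0.26 and 1 at an unadjusted p under 0.05. DUSP1, an inducible nuclear phosphatase, was at 13.1 and 11.7 in siCon and at 20.02 and 17.6 in siMYCN, and DUSP16, which acts on JNK and p38, was between 17.3 and 21.2 in all libraries. Of 14 other inhibitors, 11 reached the filter, with a median of 0.24. Of these 11, 7 were above 0 in both pairs, beside 43.2% of all genes. In limma 3 had an unadjusted p under 0.05, a share near the 26.4% of all genes. Of 8 genes for other ETS factors and for CIC, a repressor of PEA3 genes, all 8 reached the filter, with a median of 0.067 and 0 at an unadjusted p under 0.05 in limma. ELK3, ETS1 and ERF, the most abundant of these by mean, had differences of 0.14, -0.24 and 0.10 over both pairs.

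Of 18 genes of the RAS, RAF, MEK and ERK cascade, 16 reached the filter, with a median of 0.17. Of these 16, 9 were above 0 in both pairs and 3 below 0 in both, beside 43.2% and 27.4% of all genes. In limma 7 had an unadjusted p under 0.05, against 26.4% of all genes. SHC1, PTPN11 and MAP2K2, the most abundant of the cascade genes, had mean differences of 0.22, 0.20 and 0.031 over both pairs. The last of these became -0.030 with rescaled values. FGF receptors were low, with FGFR1, FGFR2, FGFR3 and FGFR4 at 3.85 or less in every library. FGFRL1, a receptor without a kinase domain, was at 4.68 and 5.08 in siCon and at 2.55 and 1.04 in siMYCN. It was also under the filter, which 1 of the 7 genes of this list passed, FRS2, a docking protein at 24.5 to 32.0.

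With let-7a, limma called 0 genes over the whole table (697 at an unadjusted p under 0.05, or 7.48%) and 0 in these lists. RASA1, a GTPase-activating protein that switches RAS off, was the 1 gene of the lists above that met the rule of size. It was at 6.80 and 3.97 in siCon with miRCon and with let-7a and at 6.23 and 3.44 in siMYCN, differences of -0.65 and -0.70. Its longest 3' UTR held none of the let-7a sites searched.

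**Figure D4:**
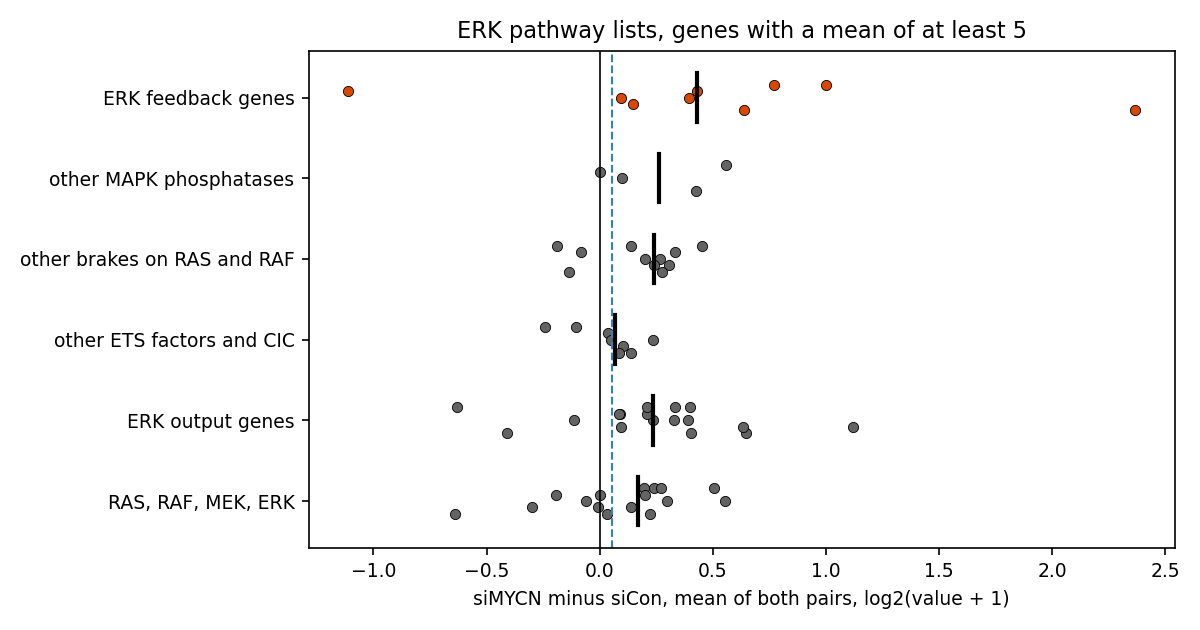
Difference with siMYCN, mean of both pairs, on log2(value + 1) for the genes of each list with a mean of at least 5, 1 point per gene; bars are list medians and the dashed line is the median of all 9324 genes. The group's own genes spread from -1.11 to 2.37, and the other lists have medians between 0.067 and 0.26.

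The genes whose pattern over the 4 libraries was most like that of DUSP6 were found by Euclidean distance between centred log2(value + 1) values. The nearest was ITM2A, a membrane protein, at a distance of 0.58, followed by CDKN1A, the gene of p21, which halts the cell cycle, at 0.61, CDH11, a cadherin, at 0.67, ERCC1, a DNA repair protein, at 0.77, and DRGX, a homeodomain factor, at 0.85. None of these is an ERK feedback gene of the lists used here. The nearest member was SPRY4 at 1.37, rank 65 of 9323 genes, followed by DUSP4 at 1.60, rank 180, and ETV4 at 1.80, rank 438. DUSP9, at 3.54, was at rank 9279. The likeness is over 4 libraries and describes the values used to choose DUSP6.

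**Figure D5:**
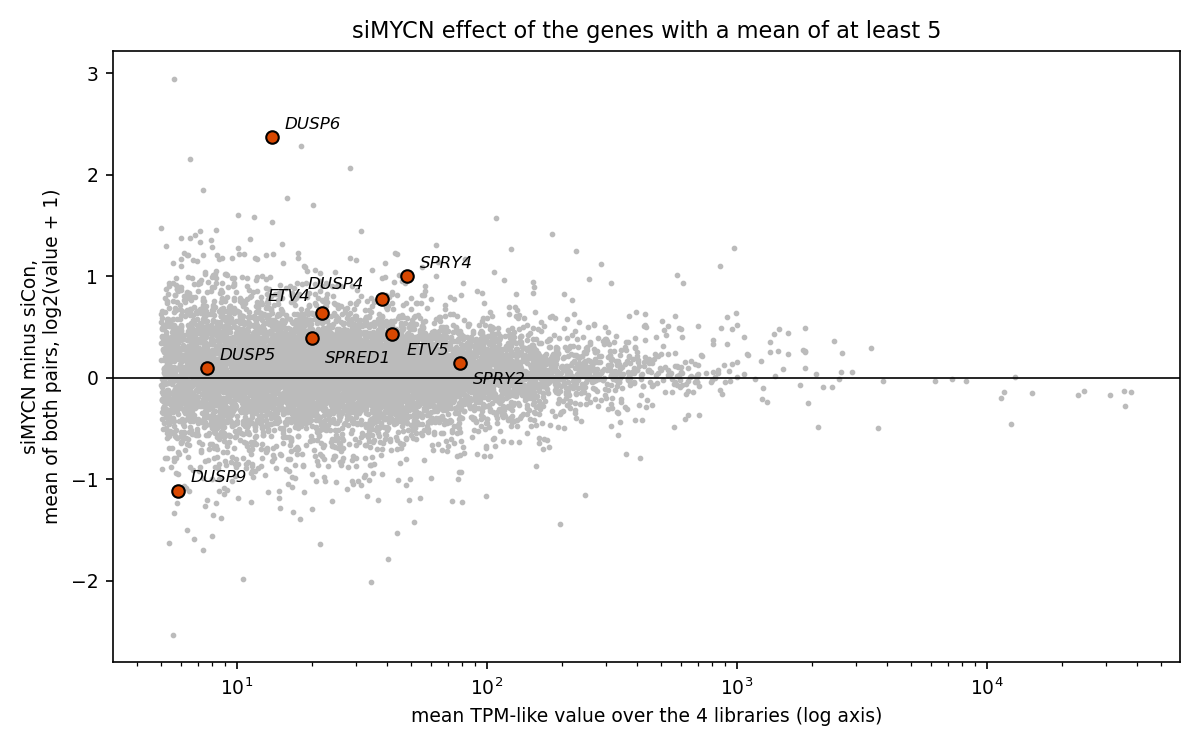
Mean TPM-like level over the 4 libraries (log axis) against the difference with siMYCN, mean of both pairs, for the 9324 genes with a mean of at least 5, in grey, and the 9 members among them, in orange. DUSP6 (2.37) lies near the upper edge of the cloud and DUSP9 (-1.11) near its lower edge, while SPRY2 (0.15) and DUSP5 (0.096) lie inside it.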

How the data were processed

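PolyA RNA was sequenced in 4 libraries, 1 per group, grouped by the labels. The deposited table holds natural log values, and exp(x) - 1 sums to between 855811 and 862049 per library. Per the submitters' processing notes, which state no roles, the tools were HISAT 0.1.6 and Salmon 0.3.2 and the genome was GRCh38. For the annotation, any filter and the log transform, the method is not given in the sources used here. Depth is unknown, so no counting error is given.

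From 19837 rows, 92 spike-in and 11 vector rows were set apart, leaving 19734 gene rows, of which 28 carried calendar dates as names. Differences are on log2(value + 1), which understates the change of low genes. Genes with a mean of at least 5 (9324) were tested with limma-trend on siRNA and mimic as additive terms, with Benjamini-Hochberg adjustment, and limma added 4.3 prior degrees of freedom to 1 residual. The p-values assume additive effects. Their error combines the deviation of these 4 libraries from additive effects with a trend over all genes, and holds no spread between replicates. Simulated siMYCN effects over 9324 genes were additive, with normal noise of the size that the fit had estimated from these libraries. The simulation thus builds in what the fit assumes, and it cannot measure how many real changes are found. In it, the fit called 47 of 67 genes changed by 1.5-fold (70.1%). It called 64 of 67 changed by 2-fold (95.5%) and 66 of 66 changed by 4-fold (100%). The fit also called 34 genes given no change. These false calls were a larger share of all its calls than the Benjamini-Hochberg threshold aims for.

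The members and lists were chosen with earlier results of these data known. Named were all members, list genes called or past 1.5-fold in both pairs, otherwise up to 3 of the highest mean per list, and the 5 genes nearest to DUSP6. SPRED2, SPRED3, DUSP7, ETV1 and FGFR1 to FGFR4 were named as relatives of members or receptors, some after their values were seen. The settings varied were the pseudocount (0.1 or 5), the filter (none, or a mean of 20), the fold (2), the scaling (median ratios) and the limma trend (none). GENCODE 29 on GRCh38 gave positions and 3' UTRs and matched all 10 members. Python 3.11.15, pandas 2.3.3, NumPy 2.4.6, R 4.3.3 and limma 3.58.1 were used.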

Additional observations from a re-analysis of the deposited data

Results flagged for a closer look

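Members whose effect had opposite signs in the 2 pairs of libraries were singled out, and the difference between the pairs was not tested, since each group holds 1 library. With siMYCN, DUSP5 had a difference of -0.046 under miRCon and 0.24 under let-7a on the log2(value + 1) scale. SPRY2 was at 0.42 with siMYCN under miRCon and at -0.13 under let-7a. For ETV4 the let-7a difference was 0.11 in siCon cells, against -0.43 in siMYCN cells. Opposite signs in the pairs were found for 29.4% of all tested genes with siMYCN and for 44.0% with let-7a.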

How the results depend on the processing

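The 3 members higher (DUSP6, SPRY4 and DUSP4) and the 1 lower (DUSP9) with siMYCN by the rule of size were the same with a pseudocount of 0.1, no filter and rescaling. With a pseudocount of 5 DUSP9 was not taken in, at a mean of at least 20 DUSP4 and SPRY4 were left, and at 2-fold DUSP6 alone was left. The members' median siMYCN effect of 0.41 became 0.55 with a pseudocount of 0.1 and 0.35 with rescaled values. Their median let-7a effect of 0.033 became -0.011 with a pseudocount of 0.1, and SPRY2 with let-7a in siCon cells became 0.0054 with rescaled values. The cause of these shifts was not tested. Rescaling moved the median of all genes by -0.059 with siMYCN and by 0.033 with let-7a. Counts over all genes depended more on the setting. By the rule of size, siMYCN gave 266 higher and 150 lower genes, 128 and 96 with a pseudocount of 5, 406 and 271 with no filter, 105 and 74 at a mean of at least 20 and 36 and 28 at 2-fold. With rescaled values it gave 193 higher and 208 lower. For let-7a the 19 higher and 24 lower became 8 and 9 with a pseudocount of 5, 90 and 79 with no filter, 1 and 4 at a mean of at least 20 and 4 and 3 at 2-fold. Limma called 193 higher and 127 lower with siMYCN, 310 and 196 at a mean of at least 20, 340 and 408 with rescaled values, and 0 and 0 with no filter and without a trend. Under a different filter, the numbers of genes differ by construction. The cause of the other changes was not tested. Limma called 0 genes with let-7a in any setting, with between 466 and 1161 at an unadjusted p under 0.05. No paired analysis was possible because the labels carry no replicate numbers and each group has 1 library, and for the same reason no replicate could be left out. Depth is unknown, so it cannot be said which low values, such as those of SPRY1, are limited by counting.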
